A study of Drosophila melanogaster with 3 samples.

Results

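The genes described here were 10 genes of the Decapentaplegic (Dpp) pathway of Drosophila melanogaster, of 13945 protein-coding genes annotated on the 6 chromosomes analysed. They were taken from a fixed list of names, dpp, tkv, Mad, Med, shn, brk, Dad, bi, salm and salr, and each was looked up in dm6 gene models and extended by 5000 bp on either side. Binding had been mapped by chromatin immunoprecipitation with sequencing (ChIP-seq) in 1 group of 3 biological replicates. All were wandering larvae of the third instar, of mixed sex and used whole, from a transgenic line, strain lola-RI-GFP, that stably expressed Lola-RI with eGFP at its C terminus. Lola-RI is a form of the transcription factor Lola, which carries a BTB domain. The labels describe an anti-GFP immunoprecipitation, though their antibody field names lola, and the sources used here do not say what drives the transgene. There was no second genotype, stage or treatment, so the values are descriptions of 1 group and carry no test between conditions. A whole larva mixes all tissues, so few cells with strong binding and many cells with weak binding cannot be told apart.

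Dpp is a secreted ligand of the bone morphogenetic protein (BMP) family. It binds receptor kinases such as Thickveins, which phosphorylate the Smad protein Mad. Mad joins the co-Smad Medea (Med) and enters the nucleus, and there, with the zinc finger cofactor Schnurri (Shn), it shuts off brinker (brk), a repressor of Dpp targets. In the wing imaginal disc of the larva this relay sets graded expression of bifid (bi, also called optomotor-blind), spalt major (salm) and spalt-related (salr). Daughters against dpp (Dad) is an inhibitory Smad that is itself induced by the pathway.

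Lola-RI-GFP summits, the points of highest signal within peaks, were unevenly spread over the 10 genes. The authors kept 9202 peaks by the irreproducible discovery rate (IDR), a measure of how well replicates rank the same peaks, and that list held 51 summits in the 10 extended genes. Of these, shn held 20 and tkv held 11, while Med and Dad held 5 each, dpp, Mad and brk held 3 each, and bi held 1. Salm and salr held 0. At least 1 IDR summit was thus present in 8 of 10 genes, against 64.0% of all protein-coding genes under the same rule, a share near that background for a list of 10. The unevenness was alike in the replicates. Each replicate list of 30000 peaks was shortened to its 9202 highest-scoring peaks, so that all lists had a common length, and those lists held 50, 56 and 50 summits in the 10 genes in replicates 1, 2 and 3. In shn the shortened lists held 16, 22 and 23 summits (mean 20.3 ± 3.79 SD, n = 3). In tkv they held 11, 13 and 8 (10.7 ± 2.52), in Dad 6, 8 and 4 (6 ± 2), and in salm and salr 0 in every replicate.

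**Figure D1:**
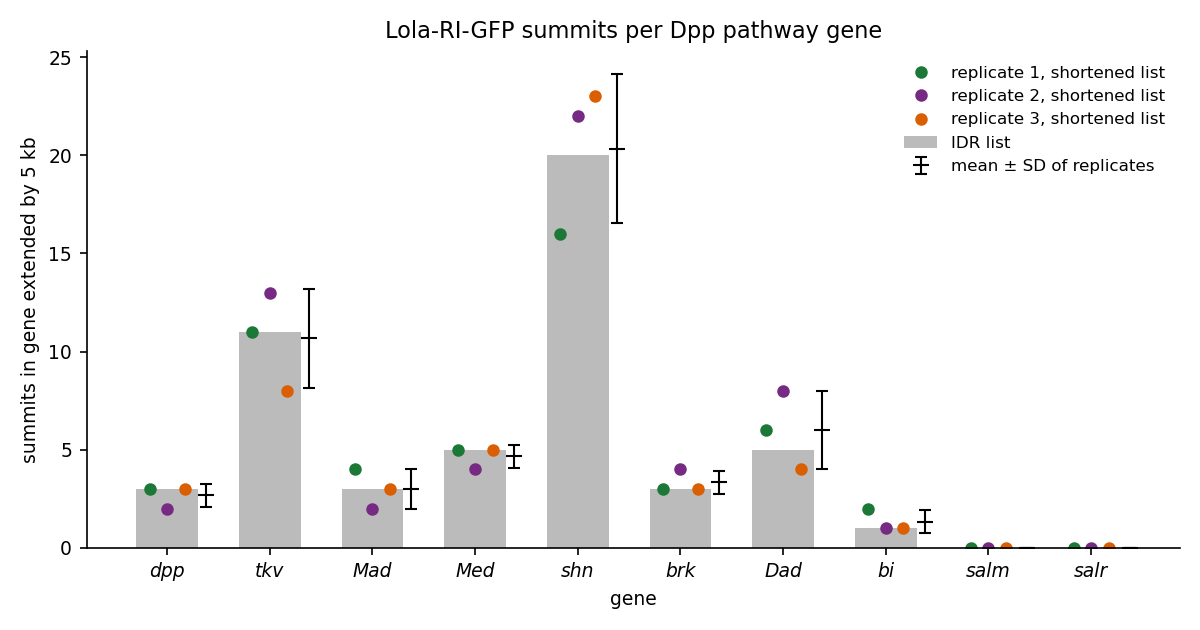
Number of summits (vertical axis) in each gene extended by 5 kb. Grey bars give the IDR list, coloured points the 3 shortened replicate lists, and black marks their mean ± SD (n = 3); shn lies between 16 and 23 in the replicates, and salm and salr lie at 0 in all of them.

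Longer genes have more room for a summit, so each count was set beside genes of like length. The shn gene is 58.3 kb long, and its 20 IDR summits corresponded to 2.93 per 10 kb of the extended gene. The value was 0.687 per 10 kb over the 6 chromosomes, and the median over extended protein-coding genes was 0.839. By density, 9.15% of protein-coding genes exceeded shn. Of all protein-coding genes, 9 held more IDR summits than shn, and 1 other held the same number, the 91.1 kb gene bun, which encodes a protein of the TSC22 family. Among 358 genes whose length was within a factor of 1.5 of that of shn, the median was 3 summits and 5 genes, 1.40%, held at least 20. For tkv, 52.4 kb long, the density was 1.76 per 10 kb, and 7.41% of 405 genes of like length held at least 11. The short gene Med reached 3.49 per 10 kb, and 7.42% of 2723 genes of like length held at least 5. The densities of brk, Dad and Mad were 2.27, 1.89 and 1.27 per 10 kb, and that of dpp was 0.724. Denser than tkv and Med were 26.2% and 5.89% of protein-coding genes. For brk, Dad, Mad and dpp these shares were 18.3%, 22.0%, 36.8% and 56.0%. At the other extreme, salm and salr had 0 per 10 kb. Lowest among the members with a summit was bi, the longest of the 10 genes at 72.8 kb, with 0.121 per 10 kb. Of 257 genes of like length to bi, 84.8% held at least 1 IDR summit. Overlapping peaks were also merged into regions, a choice made after seeing the data. The 51 summits then fell in 41 regions, shn held 14 of them, and 15 genes held more regions than shn.

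**Figure D2:**
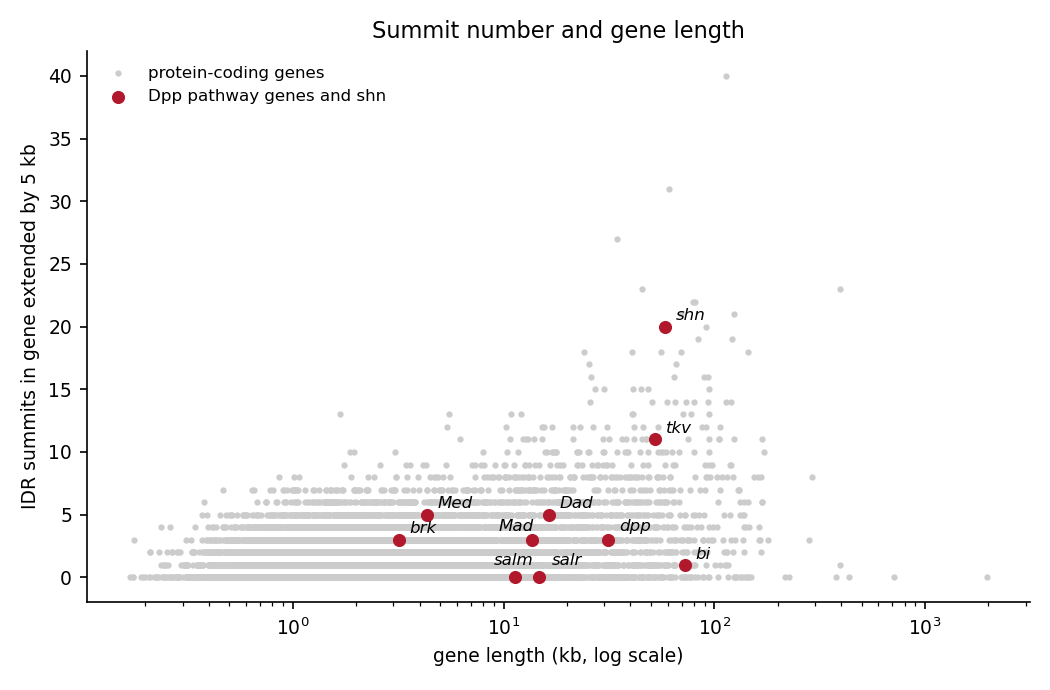
IDR summits in the gene extended by 5 kb (vertical axis) against gene length in kb (log scale) for protein-coding genes (grey) and the 10 Dpp pathway genes (red). Shn lies near the upper edge of the cloud with 20 summits, while bi, the longest member, has 1 summit and salm and salr have 0.

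The 51 summits lay mostly in introns. By the first class that applied, 38 (74.5%) were intronic, 12 (23.5%) lay within 500 bp of a transcription start site (TSS) of any gene, and 1 was intergenic. Promoter came first in that order, so a summit counted there can also lie in an exon, as the summit at the Med TSS did. Of all 9202 IDR summits, 28.5% were intronic and 55.5% lay at promoters. In the extended spans of the 307 genes of at least 50 kb, a reference chosen after seeing the data, 55.2% of summits were intronic and 35.9% at promoters. Of the 12 promoter summits, 6 lay at a TSS of the member itself and 6 at the TSS of a neighbouring or nested gene. For 16 of the 51 summits the nearest TSS was that of another gene, so the window around a member is not the same as binding at its own promoter. At its own promoter, 5 of 10 members held an IDR summit (dpp, tkv, Mad, Med and shn), against 34.0% of protein-coding genes. Counted by start site, 6 of the members' 25 TSSs had an IDR summit within 500 bp, against 32.9% of 19607 TSSs of protein-coding genes. In the pooled list of 30000 peaks, of which the IDR list is the 9202 highest-scoring, 17 of the 25 did, against 49.0%.

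The ranks of the members' peaks were spread through the list. The score that the authors gave each peak was used to rank peaks within a list, rank 1 being the highest. The median rank of the members' summits was 5030, against 4602 over the IDR list, so they were not drawn from its top. With the IDR list cut into 5 equal parts from the highest score downward, the members held 5, 11, 11, 16 and 8 summits. The 5 in the top part were 3 in shn, 1 in Dad and 1 in the Med window, the last outside Med and 28 bp upstream of the Mnat9 TSS. Of the 51 IDR peaks, 41 (80.4%) overlapped a peak of all 3 shortened replicate lists by at least 1 bp, against 74.7% of all IDR peaks, and all 51 did so in the full replicate lists. At least 1 such reproduced peak was present in 7 of 10 members, against 56.2% of protein-coding genes. Peaks of the same region were counted separately in the 80.4% and can overlap the same replicate peak. The median distance between an IDR summit and the summit of the highest-scoring overlapping peak was 22, 19 and 22 bp in replicates 1, 2 and 3.

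**Figure D3:**
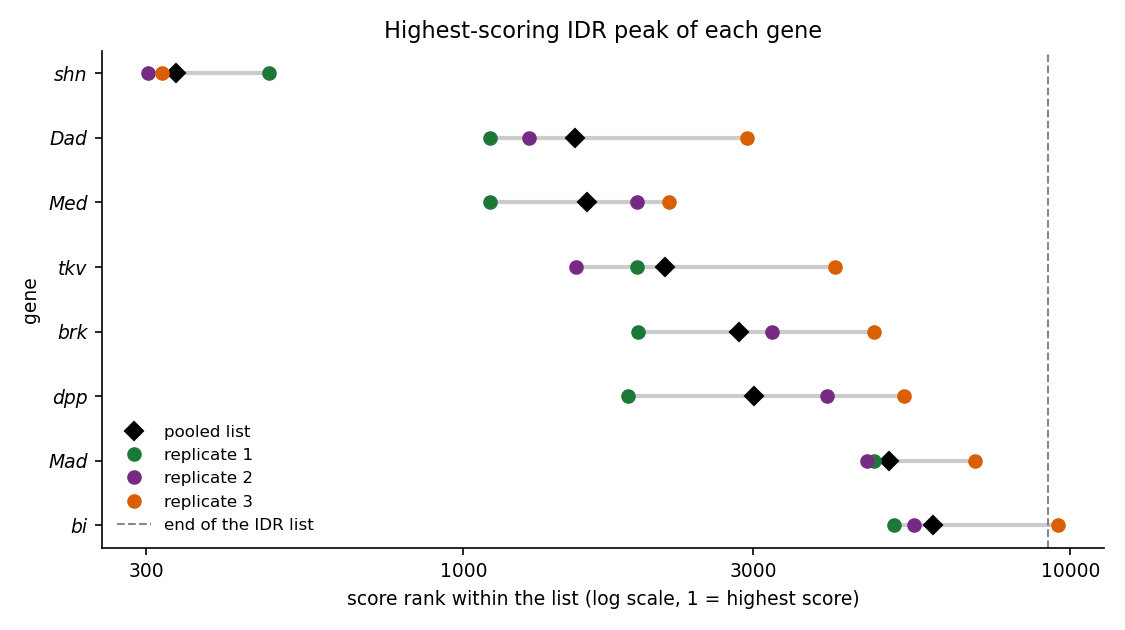
Score rank (log scale, 1 is the highest score) of the highest-scoring IDR peak of each gene in the pooled list (black diamonds) and of the best overlapping peak in each replicate list (coloured points); the dashed line is the end of the IDR list at rank 9202. The shn peak lies between ranks 302 and 479 in the replicates, and the bi peak lies past the line in replicate 3. The peak shown for Med is the one at the Mnat9 TSS.

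The ligand gene dpp lies on chromosome 2L from 2428372 to 2459823 on the + strand and has 4 annotated TSSs. Its 3 IDR summits all lay in intron 1 of the longest isoform, dpp-RA, which is 26.0 kb long. A pair of them, 659 bp apart, lay 4653 and 5312 bp downstream of the dpp-RA TSS. The stronger of the pair had rank 3007 in the pooled list and ranks 1866, 3968 and 5329 in the replicates, and the weaker had rank 6345 and ranks 6022, 5539 and 8379. The third summit, 154 bp upstream of the dpp-RC TSS, had rank 7796 and ranks 7661, 10367 and 5975, so in replicate 2 it lay past rank 9202. The dpp-RA TSS itself had pooled summits 242 and 37 bp upstream, of ranks 12050 and 27692, and no IDR summit nearer than 4653 bp. Both overlapped peaks of ranks 12071, 14584 and 13679 in the replicates. Sequence around the last summit is shown because it held the most GAGAG matches, 6 on either strand, of any dpp window, a count shared among the members by 1 window of shn. GAGAG is a core of the sequence read by GAGA factor. The 201 bp centred on it are chr2L:2450975-2451175 of dm6, + strand, with GAGAG or its reverse complement CTCTC in capitals.
dpp summit 3: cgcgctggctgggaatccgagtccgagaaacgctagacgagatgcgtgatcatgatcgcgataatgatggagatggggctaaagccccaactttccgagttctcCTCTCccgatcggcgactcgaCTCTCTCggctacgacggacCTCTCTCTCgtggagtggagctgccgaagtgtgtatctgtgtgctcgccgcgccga

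The type I receptor gene tkv lies on 2L from 5219000 to 5271384 on the - strand. Of its 11 IDR summits, 10 lay in intron 1 of the longest isoform, tkv-RA, 29.8 kb long, and 1 in intron 2, 19.7 kb long. The pooled list held 30 summits in intron 1 and 22 in intron 2. In the shortened replicate lists intron 1 held 10, 10 and 7 and intron 2 held 1, 3 and 1, so intron 1 held more in each replicate. Other genes start inside intron 1. A tkv summit of rank 9086 lay 18 bp upstream of the TSS of the cytochrome P450 gene Cyp4ac3, another of rank 6765 lay 89 bp upstream of Cyp4ac1, and 5 had the noncoding gene lncRNA:CR44744 as nearest TSS. The summit in intron 2 had its nearest TSS at TpnC25D, a troponin C gene. In all, 8 of 11 had another gene's TSS nearest. The highest-scoring summit lay on 2L at 5254297, 10158 bp upstream of the tkv-RC TSS and 4645 bp upstream of the lncRNA:CR44744 TSS. It had rank 2146 in the pooled list and overlapped peaks of ranks 1930, 1530 and 4091 in the replicates. At a TSS of tkv itself there was 1 summit, 6 bp upstream of the tkv-RB start, with rank 7528 and replicate ranks 6589, 9159 and 9424. The sequence at these 2 summits is shown since it sets the highest-scoring tkv summit beside the one at a tkv promoter. The windows are 101 bp long, chr2L:5254247-5254347 and chr2L:5242576-5242676, + strand. Capitals mark TATCGATA, the DNA replication-related element (DRE), which is found at many housekeeping promoters. It occurred in the promoter window and in none of the other 50 member windows.
tkv summit 7: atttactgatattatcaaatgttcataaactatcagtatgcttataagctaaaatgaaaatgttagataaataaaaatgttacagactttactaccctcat
tkv summit 10: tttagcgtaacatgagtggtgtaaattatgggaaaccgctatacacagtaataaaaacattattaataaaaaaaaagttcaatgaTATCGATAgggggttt

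The windows of the Smad genes Mad and Med held 3 and 5 IDR summits, and those of Med lay at its neighbours for the most part. Mad lies on 2L from 3146056 to 3159643 on the - strand. Its best IDR summit, rank 5030, lay 348 bp upstream of the Mad-RB TSS in an intron of Mad-RA, and its overlapping peaks had ranks 4743, 4622 and 6965 in the replicates. Another, rank 7112 (replicate ranks 9007, 9350 and 5880), lay 792 bp downstream of the Mad-RA TSS. The last, rank 5673 (6414, 7267 and 4563), lay 1198 bp past the 3' end of Mad, 72 bp upstream of the TSS of toc. Med lies on 3R from 31611046 to 31615375 on the + strand and overlaps the cyclin gene CycG. Its own promoter held a summit 39 bp downstream of the TSS, rank 4793, with replicate ranks 5033, 4523 and 5121, a narrow range. The other 4 summits in the Med window had another gene's TSS nearest, CycG for 3 and Mnat9 for 1. The Mnat9 summit, 28 bp upstream of that TSS and 813 bp past the 3' end of Med, was the highest-scoring of the 5, with rank 1600 and replicate ranks 1107, 1935 and 2183.

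The cofactor gene shn lies on 2R from 11159086 to 11217394 on the + strand, with 6 isoforms from 5 TSSs. Binding was placed unevenly along the gene. The first TSS, that of shn-RE, had no summit of the pooled list nearer than 14637 bp. That nearest summit was also the highest-scoring of all 10 members. It lay 80 bp upstream of the second TSS, shared by shn-RD and shn-RF, in a peak from 11173195 to 11174183. Its rank was 336 in the pooled list and 479, 302 and 319 in replicates 1, 2 and 3. Intron 1 of shn-RE, 31.1 kb long, held 7 IDR summits and intron 2, 17.8 kb long, held 12, and the 1 remaining summit lay 1941 bp past the 3' end, 94 bp upstream of the TSS of CG9084. In the shortened lists intron 2 held 9, 12 and 13 summits and intron 1 held 6, 10 and 9 in replicates 1, 2 and 3, so the shorter intron held more in each. In the pooled list of 30000 peaks the order was the other way, with 24 summits in intron 2 and 27 in intron 1. The full replicate lists held 25, 26 and 23 in intron 2 and 23, 21 and 26 in intron 1, so at that length the order differed between replicates.

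Next in score within shn was a summit of rank 816, 1311 bp downstream of the shn-RA TSS, in a peak of 1476 bp, with overlapping peaks at ranks 650, 597 and 1345 in the replicates. It was followed by summits of rank 1718, 5548 bp downstream of that TSS (replicate ranks 1612, 1229 and 2913), rank 2248, 1140 bp upstream of the shn-RB TSS (2362, 1903 and 2888), and rank 2402, 2569 bp downstream of the shn-RA TSS (2519, 3208 and 2010). The shn-RA TSS had an IDR summit 342 bp upstream, rank 5852, which overlapped peaks of ranks 11885, 4441 and 5558, so it fell outside the shortened list of replicate 1. The shn-RB and shn-RC TSSs had their nearest IDR summits 928 and 1185 bp upstream, with weaker pooled summits at 2 bp (rank 9455) and 171 bp (rank 20972). Of the 20 peaks, 16 were found in all 3 shortened lists. Over the full lists the gene held 58, 55 and 57 summits in the replicates and 60 in the pooled list.

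**Figure D4:**
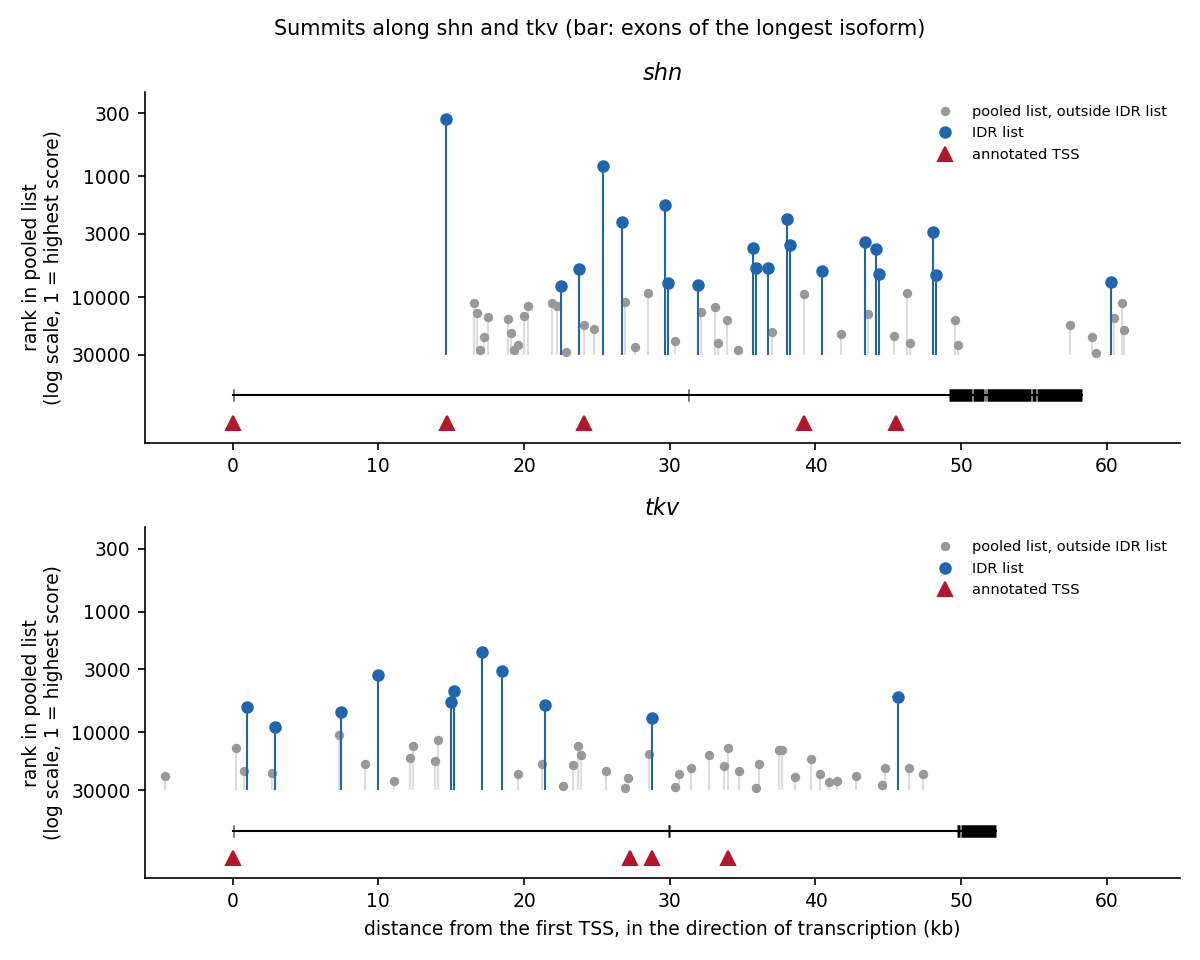
Summits of the pooled list along shn (top) and tkv (bottom), by distance from the first TSS in kb and by rank (log scale, highest score at the top); blue points are in the IDR list, grey points are not, red triangles are annotated TSSs and the black bar shows the exons of the longest isoform. In shn no summit lies between the first TSS and the rank 336 summit 14637 bp downstream, and in tkv 10 of 11 blue points lie in intron 1.

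The repressor gene brk lies on chromosome X from 7307939 to 7311132 on the + strand, with 1 TSS. All 3 IDR summits lay upstream, at 595, 794 and 1987 bp from the TSS and inside introns of CG1677 and lncRNA:CR44357, while 0 lay in brk itself. They had ranks 3971, 2843 and 4430, and lay in 2 peaks, both found in every shortened list. The summits at 595 and 794 bp shared a peak of 1168 bp, from 7306900 to 7308067. That peak covered the brk TSS and the start of the gene, though its summits lay upstream. It overlapped a peak of ranks 1937, 3229 and 4753 in the replicates. A weaker pooled summit, rank 12443, lay 3 bp from the TSS. Silencer elements for brk are known from Drosophila embryos and discs, where Mad, Med and Shn bind them. Their consensus was searched as GNCGNC, then 5 free bases, then GTCTG, by exact match on either strand. There were 3 matches in the 13.2 kb around brk and 9 in the 379 kb of all 10 extended genes, or 2.38 per 100 kb, against 0.601 per 100 kb over the 6 chromosomes. Such elements are known for brk, so its matches are no independent result, and brk alone had 22.7 per 100 kb. Dpp, tkv, Med and shn had 2.41, 3.21, 6.98 and 2.93 per 100 kb, from 1 or 2 matches each. Mad, Dad, bi, salm and salr had 0. The brk matches are shown because they can be set beside the summits, with the fixed letters in capitals and the sequence given 5' to 3' on the strand of the match. They lay 3101, 2169 and 275 bp upstream of the TSS, at chrX:7304830-7304845 (- strand), chrX:7305762-7305777 (- strand) and chrX:7307656-7307671 (+ strand). The distances to the nearest IDR summit were 1114, 182 and 320 bp. Match 3 lay wholly inside the IDR peak shared by the summits at 595 and 794 bp, and 14 of the 16 bases of match 2 lay inside the peak of the summit at 1987 bp. The first lay 9 bp from a weaker pooled summit of rank 15870.
brk match 1: GcCGcCgcgctGTCTG
brk match 2: GaCGaCggactGTCTG
brk match 3: GtCGtCagtttGTCTG

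None of the 51 member windows of 201 bp centred on an IDR summit held a match to the silencer consensus, which allows a share of up to 5.88% (3 of 51), and 7 of all 9202 such windows, 0.0761%, held one. The 16 bases of brk match 3 occurred a second time among the 10 genes, 4236 bp upstream of the first dpp TSS at chr2L:2424128-2424143 on the - strand. That copy lay 3437 bp from the nearest IDR summit. Of the other matches, tkv and shn held 2 each and Med 1, at 597 to 5457 bp from the nearest IDR summit. Of all 9 matches, 3 overlapped an IDR peak, those being brk matches 2 and 3 and 1 in shn. The overlap was not counted for the 804 matches over the 6 chromosomes, so these 3 cannot be set against a background. Mad, Dad, bi, salm and salr held 0. A match is a string of letters and was not tested as a binding site.

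The inhibitor gene Dad lies on 3R from 17054007 to 17070408 on the + strand. Its 5 IDR summits comprised 1 upstream, 1059 bp before the first TSS, and 4 in introns. The highest-scoring lay in intron 5 of Dad-RD at 17065150, with rank 1528 and replicate ranks 1105, 1281 and 2935. Another summit 231 bp further on, rank 6775, overlapped the same replicate peaks. The upstream summit had rank 3484 and replicate ranks 3427, 3534 and 4114, close to one another, and the first TSS had a pooled summit at 23 bp of rank 11096. The windows of the summits in intron 2 (rank 7410, replicate ranks 8904, 7208 and 7944) and of the latter summit in intron 5 are shown because each held TGGCGCCA. This palindrome holds TGGCGC, a sequence bound by Brk, on both strands. It occurred in 2 of 51 member windows, both in Dad, and in 1.35% of all IDR windows and 1.11% of intronic ones, a search made after these windows were seen. Each window also held GCCGNC, a Mad core, and GAGAG. The windows are chr3R:17056393-17056593 and chr3R:17065281-17065481, 201 bp, + strand, with matches to these 3 motifs on either strand in capitals.
Dad summit 2: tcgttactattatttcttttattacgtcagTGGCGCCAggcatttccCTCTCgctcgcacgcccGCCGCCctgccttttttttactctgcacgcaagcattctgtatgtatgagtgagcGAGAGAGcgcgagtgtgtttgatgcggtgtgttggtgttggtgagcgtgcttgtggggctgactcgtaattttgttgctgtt
Dad summit 5: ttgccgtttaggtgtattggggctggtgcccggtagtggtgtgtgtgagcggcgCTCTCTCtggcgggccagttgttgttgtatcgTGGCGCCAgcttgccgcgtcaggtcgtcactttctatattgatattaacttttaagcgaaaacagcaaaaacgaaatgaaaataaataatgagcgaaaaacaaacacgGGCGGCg

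Of the 10 genes, the targets bi, salm and salr held the fewest summits. Low counts were common among other targets too, though not general. Dad, also induced by the pathway, held 5. Of 9 other targets listed below 7 had an IDR summit, with 16 in ush and 0 to 2 in each of the others. The T-box gene bi lies on X from 4412856 to 4485647 on the + strand, and its 1 IDR summit lay in intron 2 of bi-RG at 4449701, 22566 bp downstream of the nearest bi TSS. It had rank 5935 in the pooled list and 5128, 5528 and 9558 in the replicates, the last of these past rank 9202. The next bi summit in the pooled list, in intron 4, had rank 9216 and lay just outside the IDR list, with replicate ranks 13203, 9513 and 6912. The 3 TSSs of bi had no IDR summit nearer than 21267 bp and no pooled summit within 500 bp. Single replicates did hold a summit near the TSS shared by bi-RC, bi-RD and bi-RE, 158 bp upstream with rank 13624 in replicate 2 and 174 bp upstream with rank 12452 in replicate 3. In the pooled list bi held 13 summits, and in the full replicate lists 11, 14 and 15.

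The zinc finger genes salm and salr are neighbours on 2L, salr from 11358873 to 11373636 on the + strand and salm from 11434311 to 11445614 on the - strand. In salr extended by 5000 bp there was no summit in any list, the full lists of 30000 peaks included. In salm there was 1 summit in the pooled list, 635 bp upstream of the TSS with rank 20286, and there were 3, 0 and 0 summits in replicates 1, 2 and 3. The highest of these 3 had rank 20128. An empty extended gene was not rare at these lengths. Of 1079 genes of like length to salr, 21.3% held no IDR summit and 13.7% no pooled summit, and of 1209 genes of like length to salm, 22.2% held no IDR summit. The 60.7 kb between the genes, which holds 1 other annotated gene, had 2 IDR summits. They lay 22.2 and 26.1 kb from salr and 38.5 and 34.6 kb from salm, and the nearest TSS was that of lncRNA:CR43681. The first had rank 8935 in the pooled list and ranks 6438, 11241 and 16487 in the replicates, and the second had rank 6886 and ranks 6016, 7516 and 9058. On the far side of salm the next IDR summit lay 71.6 kb away, so that successive IDR summits were 117 kb apart across salm. Over the IDR list 1.28% of gaps between successive summits were longer. This gap was picked because it spans salm, whose 21.3 kb window held no IDR summit, and the median gap was 3850 bp. It was therefore bound to be long, and the 1.28% does not measure how rare an empty gene is.

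**Figure D5:**
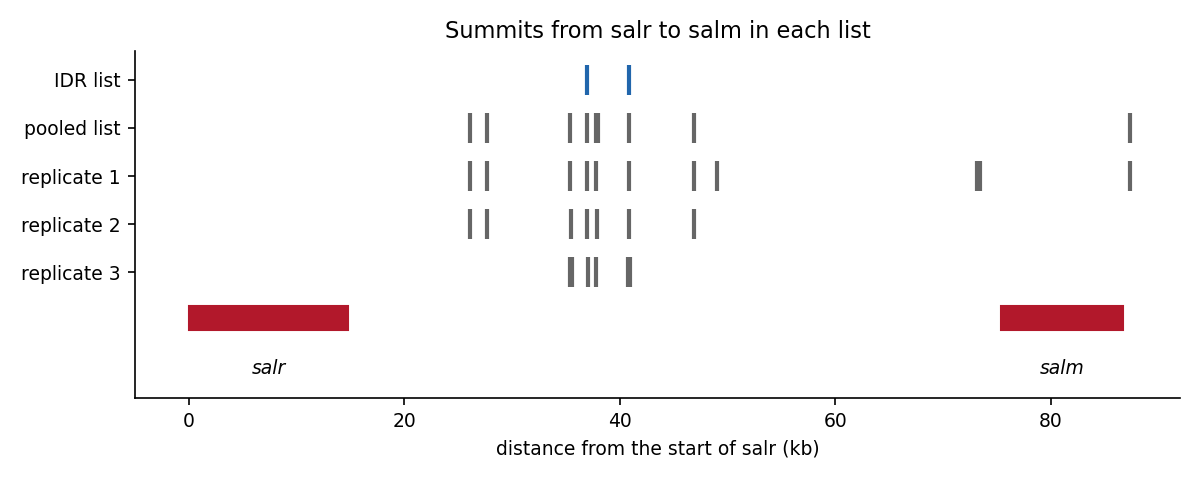
Position of each summit (ticks) in the IDR list, the pooled list and the 3 full replicate lists, by distance in kb from the start of salr, with both genes as red bars. No tick of any list lies over salr or in the 5 kb on either side of it, and the 2 IDR summits lie between the genes.

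Short motifs were counted in the 51 windows beside all 9202 IDR windows of the same 201 bp, on both strands. The Mad core GCCGNC occurred in 8 member windows (15.7%) against 18.1% of all, TGGCGC in 5 (9.80%) against 9.93%, and GAGAG in 16 (31.4%) against 29.6%. These shares were close to those of all windows. GCCGNC and TGGCGC can share bases at their ends. Of the 8 windows with the Mad core, 5 were in shn, 2 in Dad and 1 in Mad, and of the 5 with TGGCGC, 3 were in shn and 2 in Dad. TATCGATA, the Motif 1 core GGTCACAC and the Zelda sequence CAGGTAG occurred in 1 window each, the first in tkv and the others in shn, against 3.16%, 2.90% and 0.880% of all windows. The E-box CAGCTG was in 0 of 51 windows, which allows a share of up to 5.88% (3 of 51), against 11.3% of all IDR windows. In the 38 intronic member windows, 0 allows up to 7.89%, against 8.58% of all intronic windows. The limit for a count of 0 covers counting error only and treats windows as separate. Neighbouring summits can share sequence, and 19 of the 51 shared a region with another. The intronic limit is thus too near 8.58% to show fewer E-boxes in members. The median GC content was 36.8% in member windows and 38.8% in all.

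The other genes of the pathway were followed through a list of 27, grouped by role. Of these, 22 (81.5%) had an IDR summit in the extended gene, against 64.0% of all protein-coding genes, and 11 (40.7%) had one at their own promoter, against 34.0%. Unlike the members, these genes were not set beside genes of like length, and several are long. By role these were 1 of 2 ligands, 3 of 3 receptors, 7 of 9 extracellular modulators, 4 of 4 intracellular regulators and 7 of 9 targets. The 8 with the highest-scoring peaks were nmo (rank 18), ush (268), wit (757), tsg (1154), tup (1157), bam (1642), gbb (1695) and knrl (2119). For 6 of these 8 the nearest TSS was another gene's. The nmo peak, with replicate ranks 36, 14 and 20, lay 40 bp upstream of bip1 and past the end of nmo, a Nemo-like kinase gene with 11 IDR summits in its window. The ush peak, in an intron of the gene for the GATA cofactor U-shaped, had cbt as nearest TSS, and ush held 16 IDR summits, the most in this list, in a gene of 64.3 kb. The peak of wit, a type II receptor gene, lay 1483 bp upstream of the wit TSS, in a coding exon outside wit and with Faa as nearest TSS, that of tsg at cac, that of tup at CG10602 and that of gbb, a BMP ligand gene, at asRNA:CR45928. Bam, a germline differentiation gene silenced by the pathway, had its peak 517 bp upstream of its own TSS, with replicate ranks 1737, 2488 and 1367. The peak of knrl lay in one of its introns. The 5 genes with no IDR summit, named after their values were seen, were scw, tld, tok, pnr and zen.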

How the data were processed

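The labels name dm6 as the build, and positions are written 1-based. The authors called peaks in each replicate and on the 3 replicates pooled, against a control library not analysed here, and derived the IDR list from these, per the deposited text descriptions. The sources used here do not name the caller, the aligner or the IDR cutoff. Each peak's deposited score came from the authors on an unstated scale and served only for ranks within a list. The files hold no read counts, so depth is unknown, and every full list has 30000 peaks whatever the strength of its library. Chromatin had been sonicated to 200 to 800 bp. Per the labels the replicates are separate biological samples.

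Gene models were Ensembl release 115 with transposable elements left out, and sequence was NCBI release 6. The start and end of all 10 members were the same in the RefSeq gene table. Summits were the peak start plus the summit offset. No test was made, since there is 1 group. The members, gene lists and motifs were chosen with earlier results of these data known. The genes named were the 10 members, up to 8 other pathway genes by score, the gene with the TSS nearest to a summit and the gene most like the member with the most summits. Alternatives changed the extension, the promoter width, the list, the overlap rule, the replicates used and the motif window. Counting was tested on simulated summits. Python 3.11.15 with pandas 2.3.3 was used.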

Additional observations from a re-analysis of the deposited data

How the results depend on the processing

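In the 10 members, the 4601 highest-scoring IDR peaks held 23 summits and the pooled list 189. With those 4601 peaks 1 member, shn, kept a promoter summit, and the share of all genes that did so is not given here. A reciprocal overlap of 50% left 26 of the 51 peaks found in all 3 replicates. With 1 replicate left out, 42 to 46 peaks and 7 to 8 members were found in the remaining lists. In the gene body alone, the density per 10 kb was 0.954 for dpp, 2.31 for Med and 0 for brk, and 12 of the 27 other pathway genes held an IDR summit, against 19.1% of all protein-coding genes under that rule. That share depends on gene length, and no share for genes of like length to the 27 is given here. Motif counts followed the window. With 50 bp on either side of the summit, the Mad core was in 3 windows, GAGAG in 9, and the Motif 1 core and the Zelda sequence in 0. With 150 bp, the Mad core was in 18, the Zelda sequence in 3 and the E-box in 2. The shares over all IDR windows at these widths are not given here, so these counts cannot be set against a background. The other 50 of 65 alternatives moved a count by less than 1.5 times or a density by no more than the SD over replicates. No paired analysis was possible because there is 1 group. Depth is unknown, and a missing peak does not show that binding is absent.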

Other observations

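Within the members, 9 of 43 gaps between neighbouring IDR summits (20.9%) were at most 250 bp. Over the whole IDR list this held for 1091 of 9196 gaps (11.9%), and the smallest gap was 199 bp in both. The 20 shn summits fell in 14 regions of overlapping peaks, so the count of summits there is higher than the count of separate bound stretches.

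Of the 38 intronic IDR summits in members, 33 (86.8%) had a peak in each shortened replicate list, and the share over the 2621 intronic IDR summits was 67.6%. Of the 51 member summits, 19 shared a region with another, as did 28.5% of all IDR peaks. Such summits were counted separately although they can overlap the same replicate peaks. The shares are thus not shares of separate bound stretches, and their difference was not tested. The median rank was 4482 in members and 5072 over all intronic summits, a reference chosen after seeing the data.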
